A study of Homo sapiens with 10 samples.

Results

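Heme oxygenase 1 and 8 further genes regulated by the transcription factor NRF2 were followed in cultured human gastric cancer cells. The set was defined by symbol as HMOX1, NQO1, GCLC, GCLM, SRXN1, TXNRD1, FTL, FTH1 and AKR1B10, with every probe set whose annotation held exactly 1 of these symbols. This gave 16 probe sets for 8 of the 9 genes, among 54675 probe sets on the array. No probe set was named FTH1 in the annotation used here, so that gene has no value.

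The cells had been stained with Hoechst 33342, a DNA-binding dye, and sorted by fluorescence. Side population cells keep little of the dye because efflux transporters pump it out, whereas non-side population cells keep it. The 10 arrays held the side population as 4 samples lettered a to d, the non-side population as 4 samples with the same letters, and 2 samples, a and b, of cells that were not sorted (called unsorted). All 10 origin labels name AGS and MKN 45, both established lines from gastric carcinomas. The source label of 8 arrays names AGS alone, and side population samples a and b carry one without a line, so which line each array represents is not settled by the labels. No treatment or genetic change is given for any group. The labels do not say that replicates came from separate cultures, so each p-value reflects only how far these samples scatter, a spread that may be technical.

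NRF2, encoded by NFE2L2, is held in the cytoplasm by KEAP1 and degraded there. Oxidants and electrophiles free it to enter the nucleus, where it pairs with small MAF proteins at antioxidant response elements and raises genes for glutathione synthesis, thioredoxin recycling, quinone reduction and iron storage. HMOX1 is also held down by the heme-sensing repressor BACH1, and some tumours keep the NRF2 program switched on.

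The element that NRF2 and small MAF proteins recognise can be read in the promoters, and it is shown here for the genes of the set in which it was found. RefSeq promoters (GRCh38.p14, from 250 bases before to 50 bases after the start) were at hand for 6 of the genes, with 7 promoters in all. HMOX1, AKR1B10 and FTH1 were not among them. The letters TGACNNNGC were searched on both strands, the other strand reading GCNNNGTCA. They occurred in 3 of the 7 promoters, 1 of GCLM and 2 of TXNRD1, against 4687 of all 35116 promoters of the same length (13.3%). Capitals mark the match, and each sequence runs 5′ to 3′ on the strand of its gene.
GCLM promoter, chr1:93909431-93909494, minus strand: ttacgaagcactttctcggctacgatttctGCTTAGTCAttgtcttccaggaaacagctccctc
TXNRD1 upstream promoter, chr12:104215650-104215718, plus strand: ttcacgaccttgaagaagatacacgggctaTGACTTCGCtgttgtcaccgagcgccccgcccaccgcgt
TXNRD1 downstream promoter, chr12:104286900-104286968, plus strand: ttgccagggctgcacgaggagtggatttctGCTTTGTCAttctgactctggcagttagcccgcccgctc
The GCLM match lay 34 to 26 bases before the start, the TXNRD1 matches shown lay 99 to 91 and 102 to 94 bases before theirs. The upstream TXNRD1 promoter held a second match that reached its start. A match is a run of letters and not a bound site, and the promoters of NQO1, GCLC, SRXN1 and FTL did not hold these letters within this window.

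The deposited values were linear intensities in arbitrary units, scaled to a common trimmed mean, and differences were fitted with limma on log2(intensity + 6.1), with 1 probe set for each gene. A gene was called when its Benjamini-Hochberg adjusted p was under 0.05 over the 9888 genes tested. Fold changes are log2 values on that scale with the standard error (SE) of the fit, and they understate the change of dim genes. Array medians lay between 58.7 and 85.4. Side population replicate a stood apart in its control ratio of 3′ to 5′ intensity for actin, a measure of RNA integrity and copying, at 3.34 against 0.987 to 1.28 on the other 9 arrays. All 5 gastric epithelial markers read above the array median on every array by at least 1 probe set. So did 1 of 5 fibroblast markers and 0 of the 3 blood cell markers with a probe set (of 5 listed). The epithelial marker CDH1 read 242.0 to 467.7 with 201131_s_at, but 2.9 to 58.6 with 201130_s_at, below the median on every array.

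All 8 measured genes passed the filter on low values, through 14 of the 16 probe sets. HMOX1 was lower in side population cells than in unsorted cells, by 2.83-fold, and no other gene of the set was called in any of the 3 comparisons. Between side and non-side population cells 0 of the 8 genes were called, where limma called 0 of all 9888 genes (0%), with 430 at an unadjusted p under 0.05. Against unsorted cells, 1 of 8 was called for the side population and 0 of 8 for the non-side population, where 2.35% of all genes were called for the side population (1.81% higher and 0.536% lower) and 3.52% for the non-side population (2.37% higher and 1.15% lower). The median log2 fold change of the 8 genes was 0.012 for side minus non-side population, -0.013 for side population minus unsorted and -0.040 for non-side population minus unsorted. Over all genes tested these medians were 0.045, 0.042 and -0.0099. The last 2 comparisons share the same pair of unsorted arrays and are not independent of each other. In both, only the side or non-side population cells had been sorted, and the part of sorting in any difference was not tested.

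**Figure D1:**
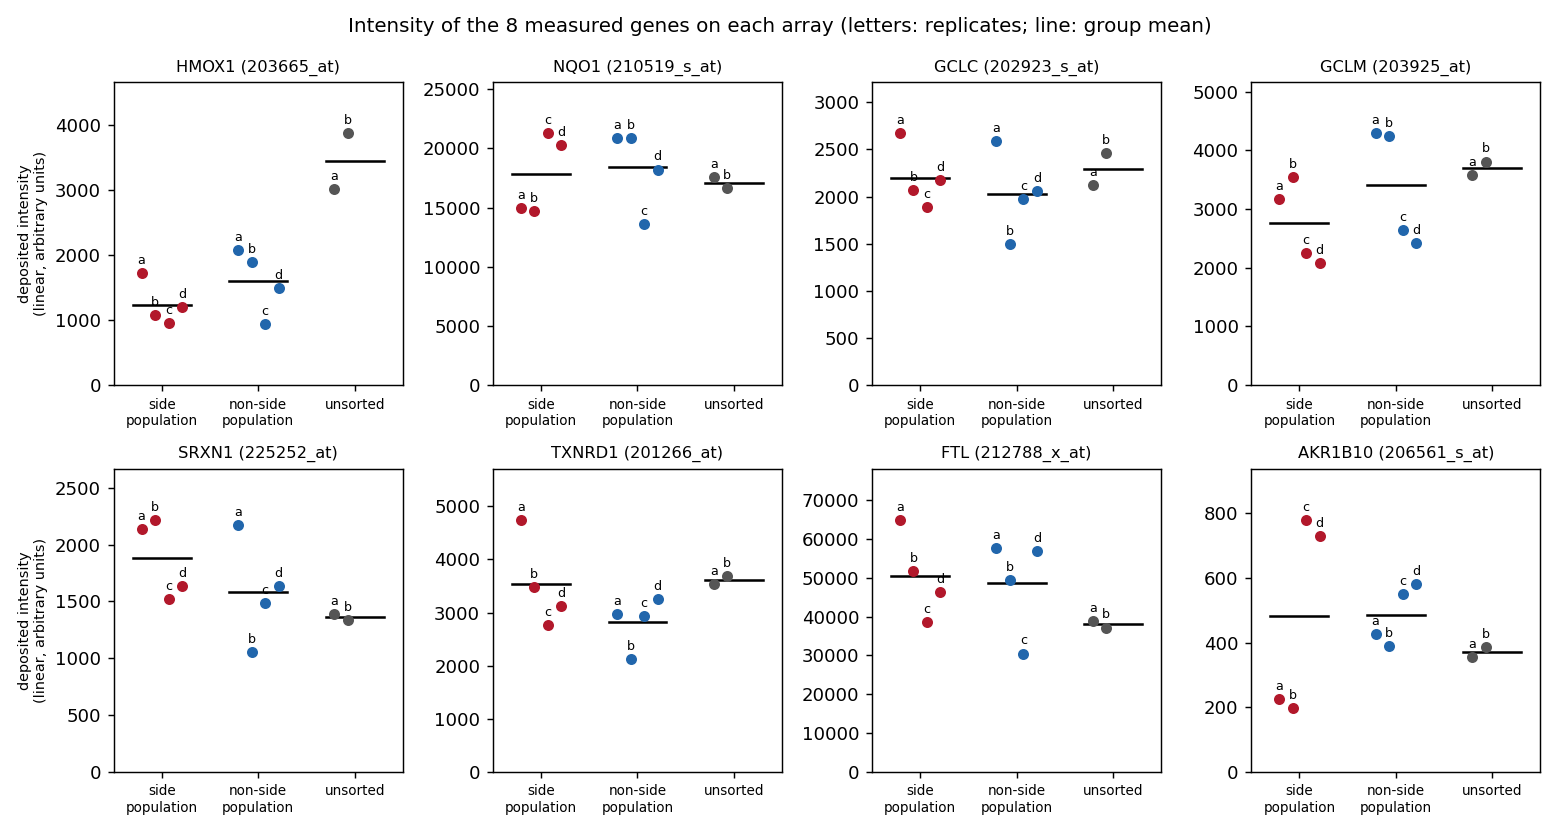
Deposited intensity (linear, arbitrary units, axes from 0) of the probe set that represents each of the 8 measured genes, with 1 point per array lettered by replicate and a line at each group mean. HMOX1 is the gene whose 8 sorted arrays, 935.4 to 2078.7, all lie below both unsorted arrays, 3015.3 and 3876.0, while AKR1B10 has the widest ratio of highest to lowest among side population arrays, from 197.9 to 781.0.

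HMOX1 encodes heme oxygenase 1, the inducible enzyme that opens heme to biliverdin, iron and carbon monoxide. Its probe set, 203665_at, read 1716.4, 1068.5, 958.4 and 1194.2 in side population replicates a to d, and 2078.7, 1894.8, 935.4 and 1494.1 in non-side population replicates a to d. In unsorted a and b it read 3015.3 and 3876.0. Every sorted array lay below both unsorted arrays, while the side and non-side population arrays overlapped. The group means were 1234 ± 335 in side population cells and 1601 ± 506 in the non-side population (SD over 4 arrays each), against 3446 ± 609 in unsorted cells (SD, n = 2).

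The HMOX1 difference from unsorted cells was -1.50 ± 0.33 for the side population (95% interval -2.21 to -0.79, limma adjusted p = 0.0312), a lower level. For the non-side population it was -1.15 ± 0.33 (interval -1.86 to -0.45, adjusted p = 0.0679), a 2.23-fold lower level that did not pass. The difference between the sorted populations was -0.35 ± 0.27 (interval -0.92 to 0.23, adjusted p = 0.997). HMOX1 thus passed against unsorted cells in one sorted population and not in the other, and the direct comparison of the 2 populations did not pass.

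The HMOX1 call rests on few arrays. The adjusted p was 0.0650, 0.0683 and 0.0520 without side population replicate b, c or d, where the difference was -1.44, -1.39 or -1.50. Without unsorted replicate a it was -1.68 ± 0.45 (adjusted p = 0.272), and without unsorted replicate b -1.32 ± 0.45 (adjusted p = 0.334). Those fits keep 1 unsorted array, which is assumed to vary like the other groups, and their standard error is larger than that of the full fit (0.33). Leaving out side population replicate a, whose actin ratio was raised, gave -1.67 with an adjusted p of 0.0320. In these bulk samples, fewer cells expressing a gene and less of its RNA in each cell cannot be told apart.

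CEACAM5 (201884_at), 1 of 3 genes chosen as linked to the MKN 45 line, rose in the same comparisons. It stood at 2.44 ± 0.39 for side population minus unsorted (adjusted p = 0.00782) and 2.60 ± 0.39 for non-side population minus unsorted (adjusted p = 0.00307). Its dimmer probe set 217291_at went the other way, averaging 110.6 in side and 107.9 in non-side population arrays against 171.1 in unsorted arrays. The other two genes of that list were not called. MET (203510_at) stood at 1.28 ± 0.34 for side population minus unsorted (adjusted p = 0.0652) and 0.90 ± 0.34 for non-side population minus unsorted (adjusted p = 0.165), and CEACAM6 at -0.45 ± 0.20 in both (adjusted p = 0.264 and 0.229). MET 211599_x_at averaged 391.85 in side population, 449.95 in non-side population and 368.3 in unsorted arrays. In that order, 213807_x_at averaged 259.8, 339.0 and 333.65, and 213816_s_at 61.7, 88.75 and 85.05. All 3 genes read above the array median on every array. The intensity summed over their 8 probe sets, to which CEACAM6 gave the most, was 18396.6 to 23349.8 in side population arrays and 16276.5 to 24399.3 in non-side population arrays, against 22789.9 and 22835.7 in the unsorted arrays. The part of cell line makeup in the HMOX1 difference was not tested.

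**Figure D2:**
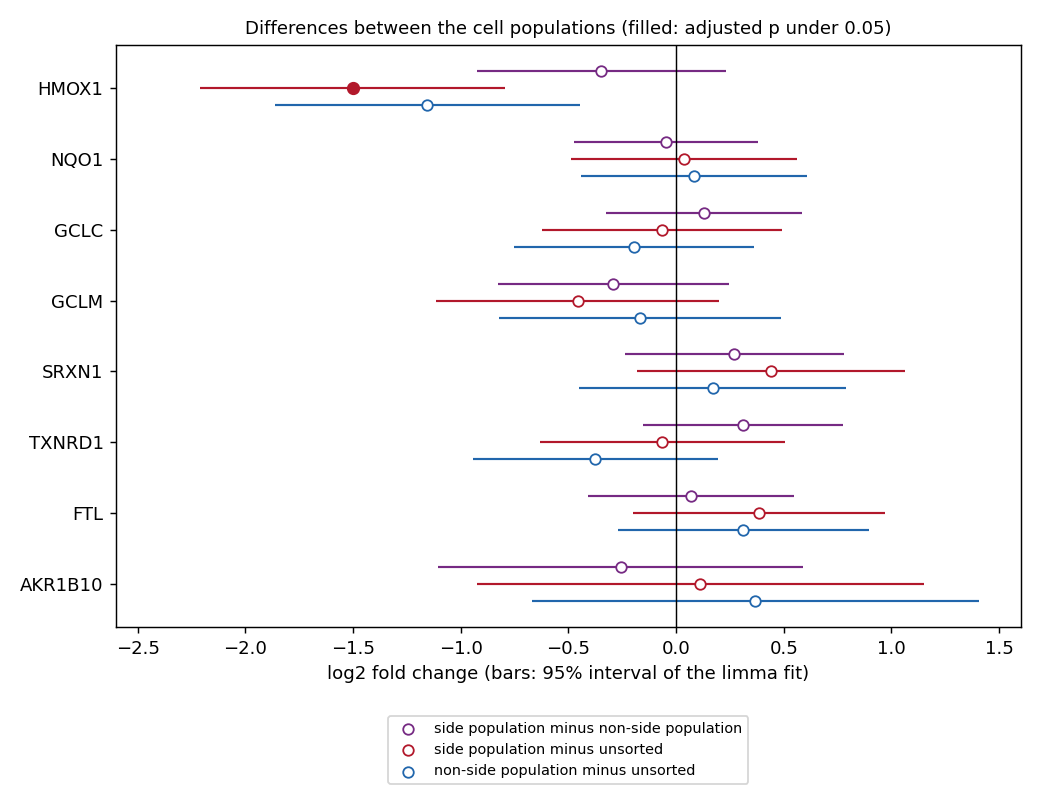
Log2 fold change of each gene for side population minus non-side population, side population minus unsorted and non-side population minus unsorted, with bars for the 95% interval of the limma fit and a filled point where the adjusted p is under 0.05. The filled point is HMOX1 in side population minus unsorted, at -1.50, and the other 7 genes have intervals that include 0 in all 3 comparisons.

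FTL encodes the light chain of ferritin, the iron-storing shell that takes up iron such as that released from heme. Probe set 212788_x_at read 65076.1, 51870.9, 38667.1 and 46268.5 in side population replicates a to d, 57720.0, 49490.6, 30511.6 and 56980.6 in non-side population replicates a to d, and 38782.9 and 37215.9 in unsorted a and b. Side population replicate c and non-side population replicate c lay within or below the unsorted range, and the other 6 sorted arrays lay above it. The differences were 0.071 ± 0.22 between the sorted populations (interval -0.41 to 0.55), 0.38 ± 0.27 for side population minus unsorted (adjusted p = 0.515) and 0.31 ± 0.27 for non-side population minus unsorted (adjusted p = 0.567). None passed.

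The second FTL probe set, 213187_x_at, read 33702.6 to 41171.8 in side population arrays and 26406.5 to 44713.4 in non-side population arrays, against 33198.6 and 35450.4 in unsorted arrays. It followed the first with a Pearson correlation of 0.883 over the 10 arrays. Both FTL probe sets carry the suffix that marks probes matching other sequences too. No saturation flags were used here.

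GCLC and GCLM encode the catalytic and modifier subunits of glutamate-cysteine ligase, the rate-limiting enzyme of glutathione synthesis. GCLC (202923_s_at) read 2677.4, 2070.9, 1884.6 and 2176.0 in side population replicates a to d, 2585.9, 1499.3, 1975.2 and 2062.4 in non-side population replicates a to d, and 2121.0 and 2458.8 in unsorted a and b. The 3 groups overlapped, and replicate a was the highest in both sorted groups. The difference was 0.13 ± 0.21 between the sorted populations (interval -0.33 to 0.59), -0.064 ± 0.26 for side population minus unsorted (adjusted p = 0.935) and -0.20 ± 0.26 for non-side population minus unsorted (adjusted p = 0.730).

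GCLM (203925_at) read 3169.8, 3537.7, 2244.2 and 2075.5 in side population replicates a to d, 4297.4, 4250.0, 2644.4 and 2422.9 in non-side population replicates a to d, and 3578.5 and 3808.1 in unsorted a and b. All 4 side population arrays lay below both unsorted arrays, and the non-side population arrays lay on either side of them. In both sorted groups replicates a and b read above c and d, and under each letter the side population array read below its non-side counterpart. The difference was -0.29 ± 0.25 between the sorted populations (interval -0.83 to 0.25), -0.46 ± 0.31 for side population minus unsorted (adjusted p = 0.482) and -0.17 ± 0.31 for non-side population minus unsorted (adjusted p = 0.813).

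TXNRD1 encodes thioredoxin reductase 1, which uses NADPH to keep thioredoxin reduced in the cytosol. Probe set 201266_at read 4752.9, 3478.0, 2774.2 and 3124.7 in side population replicates a to d, 2970.8, 2126.3, 2944.1 and 3255.8 in non-side population replicates a to d, and 3541.3 and 3696.3 in unsorted a and b. All non-side population arrays lay below both unsorted arrays, while side population replicate a lay above them and b to d below. The difference was 0.31 ± 0.22 between the sorted populations (interval -0.15 to 0.77), -0.064 ± 0.27 for side population minus unsorted (adjusted p = 0.936) and -0.37 ± 0.27 for non-side population minus unsorted (adjusted p = 0.469). Probe set 1561080_at, also named TXNRD1, read 0.8 to 27.4, below the array median on every array, and was not tested.

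SRXN1 encodes sulfiredoxin, which restores over-oxidised peroxiredoxins. Probe set 225252_at read 2133.9, 2220.3, 1520.9 and 1639.4 in side population replicates a to d, 2169.7, 1056.5, 1487.6 and 1631.4 in non-side population replicates a to d, and 1391.8 and 1338.3 in unsorted a and b. All side population arrays lay above both unsorted arrays, and the non-side population arrays lay on either side, with replicate b the lowest of the 10. The difference was 0.27 ± 0.24 between the sorted populations (interval -0.24 to 0.78), 0.44 ± 0.29 for side population minus unsorted (adjusted p = 0.472) and 0.17 ± 0.29 for non-side population minus unsorted (adjusted p = 0.794).

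NQO1 encodes the quinone reductase that carries out an obligate hydride transfer to quinones and is among the most used readouts of NRF2 activity. Probe set 210519_s_at read 14935.0, 14732.2, 21317.1 and 20254.2 in side population replicates a to d, 20883.5, 20847.2, 13622.3 and 18213.4 in non-side population replicates a to d, and 17553.0 and 16632.0 in unsorted a and b. In the side population, replicates a and b lay below the unsorted arrays and c and d above them, and in the non-side population a, b and d lay above and c below. The difference was -0.046 ± 0.20 between the sorted populations (interval -0.48 to 0.38), 0.039 ± 0.25 for side population minus unsorted (adjusted p = 0.959) and 0.085 ± 0.25 for non-side population minus unsorted (adjusted p = 0.888).

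AKR1B10 encodes an aldo-keto reductase that reduces retinal and reactive aldehydes. Probe set 206561_s_at read 226.6, 197.9, 781.0 and 729.2 in side population replicates a to d, 425.6, 389.6, 551.4 and 579.9 in non-side population replicates a to d, and 355.4 and 386.5 in unsorted a and b. Side population replicates a and b were the 2 lowest of all 10 arrays and c and d the 2 highest. The difference was -0.26 ± 0.40 between the sorted populations (interval -1.10 to 0.59), 0.11 ± 0.49 for side population minus unsorted (adjusted p = 0.940) and 0.37 ± 0.49 for non-side population minus unsorted (adjusted p = 0.728).

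Genes with several probe sets did not give a single picture. For NQO1, 201467_s_at followed 210519_s_at (r = 0.923 over the 10 arrays), whereas 201468_s_at followed neither (r = 0.022 with 210519_s_at and -0.033 with 201467_s_at). It read 7957.9, 6025.9, 10251.2 and 8859.7 in side population replicates a to d, 5966.8, 3876.4, 6477.6 and 9656.6 in non-side population replicates a to d, and 7526.2 and 7600.5 in unsorted a and b. Its side minus non-side difference was 0.40 ± 0.26, against -0.14 ± 0.22 for 201467_s_at and -0.046 ± 0.20 for 210519_s_at, and none of the 3 passed when each probe set was fitted on its own (lowest adjusted p 0.970).

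For GCLM, 236140_at did not follow 203925_at (r = -0.098 over 10 arrays). It read 1062.8, 1164.7, 443.3 and 563.3 in side population replicates a to d, 288.6, 344.5, 1279.5 and 652.8 in non-side population replicates a to d, and 844.1 and 1270.7 in unsorted a and b. The third GCLM probe set, 234986_at, read 485.4 to 943.6 in side population arrays and 519.8 to 782.2 in non-side population arrays, against 449.7 and 602.3 in unsorted arrays. For GCLC, 202922_at read 757.5 to 1087.9 in side population arrays and 758.1 to 1082.1 in non-side population arrays, against 740.4 and 829.0 in unsorted arrays, and 1555330_at stayed between 7.5 and 95.4 and was not tested. Which transcripts the discordant probe sets measure was not tested.

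The sorted arrays of letters a and b differed from those of letters c and d. This division, taken from earlier results of the same data, was fitted with each pair of arrays as a group of its own. Since it was chosen on these same arrays, calls and adjusted p-values within it, here and below, are descriptive and no independent test. Within letters a and b, AKR1B10 was lower in side than in non-side population cells, at -0.92 ± 0.24 (SE, n = 2 and 2, limma adjusted p = 0.0377), the 1 gene of the 8 called, where 9.15% of all genes were called. Within letters c and d its difference was 0.41 ± 0.24 (adjusted p = 0.983), with 0 of the 8 genes and 0% of all genes called. The difference of these differences was -1.34 ± 0.34 and did not pass (adjusted p = 0.0998).

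Without side population replicate a, the AKR1B10 difference within letters a and b was as large and did not pass (-1.02 ± 0.29, adjusted p = 0.130), and 1 gene was called in place of 905. That fit keeps 1 side population array, assumed to vary like the other groups. The 2 side population arrays in this division are those whose source label gives no line, so population and that label cannot be told apart there. Set against the unsorted arrays, AKR1B10 was lower in side population replicates a and b (-0.79 ± 0.24, adjusted p = 0.0442) and higher in c and d (1.01 ± 0.24, adjusted p = 0.0216). Of all genes, 13.7% and 8.5% were called in these comparisons. Side population replicate b alone stood at -0.88 relative to unsorted cells.

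NQO1 as measured by 210519_s_at had the same layout as AKR1B10, at -0.49 ± 0.21 within letters a and b (adjusted p = 0.132) and 0.40 ± 0.21 within letters c and d (adjusted p = 0.983), with a difference between them of -0.89 ± 0.29 (adjusted p = 0.115). Its probe set 201468_s_at stood at 0.53 within letters a and b and 0.27 within c and d, positive in both and with no test. TXNRD1 stood at 0.69 ± 0.23 within letters a and b (adjusted p = 0.0717) and -0.072 ± 0.23 within c and d (adjusted p = 0.998). GCLM as measured by 203925_at was lower in side population replicates c and d than in unsorted cells (-0.77 ± 0.19, adjusted p = 0.0281, where 8.5% of all genes were called). It stood at -0.14 ± 0.19 for side population replicates a and b (adjusted p = 0.677), and did not pass in the fit of all arrays (adjusted p = 0.482). Its probe set 236140_at also read lower in side population replicates c and d (443.3 and 563.3) than in unsorted a and b (844.1 and 1270.7). With 234986_at, side population replicates c and d read 485.4 and 503.1, within the unsorted range of 449.7 to 602.3. Neither was tested in this division. HMOX1 was lower than in unsorted cells in side population replicates a and b (-1.33 ± 0.29, adjusted p = 0.00988) and in c and d (-1.67 ± 0.29, adjusted p = 0.00429). For the non-side population HMOX1 passed in replicates c and d (-1.53 ± 0.29, adjusted p = 0.00515, where 11.9% of all genes were called) and not in a and b (-0.78 ± 0.29, adjusted p = 0.0645, where 22.2% were called), and that gap was not tested.

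**Figure D3:**
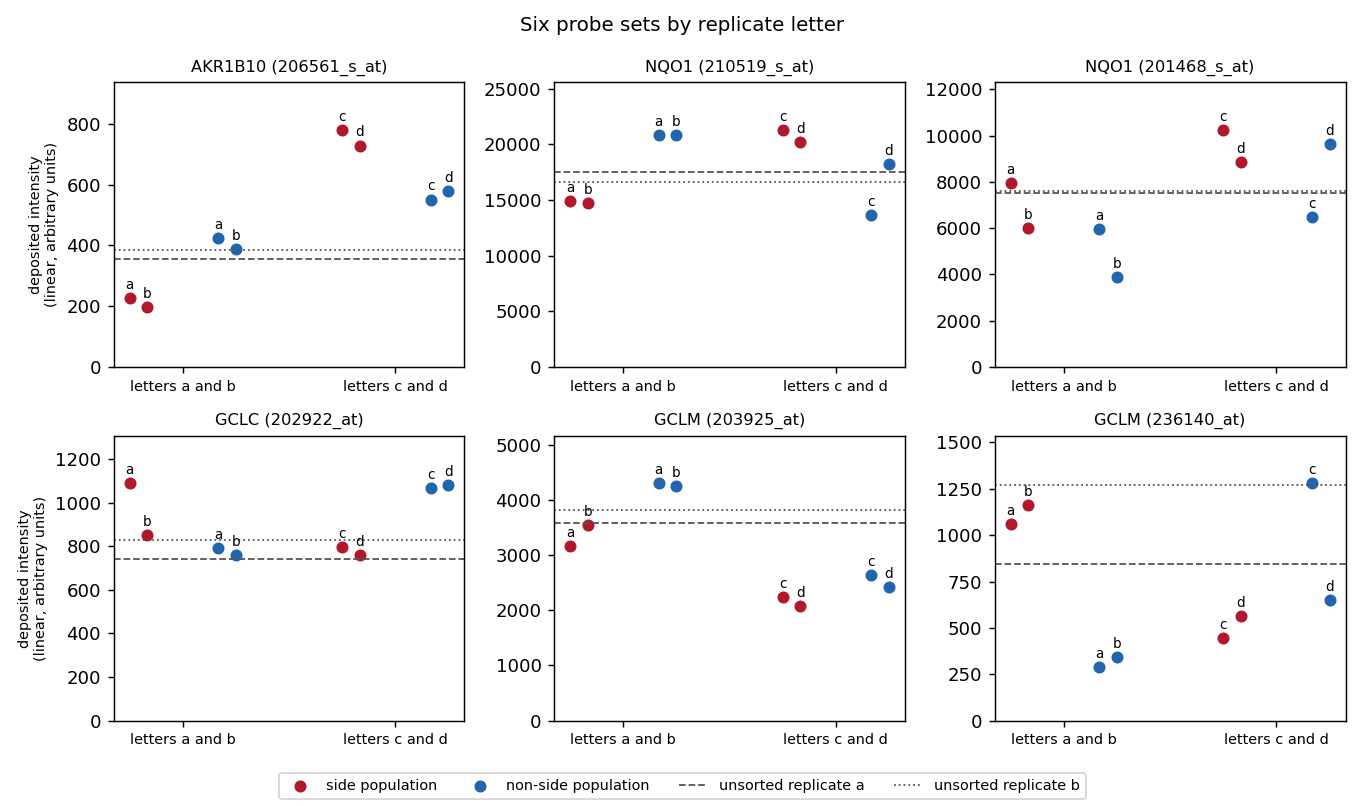
Deposited intensity (linear, arbitrary units) of 6 probe sets in sorted arrays of letters a and b and of letters c and d, side population in red and non-side population in blue, with the 2 unsorted arrays as lines. Side population points of AKR1B10 lie below the non-side points under letters a and b (226.6 and 197.9 against 425.6 and 389.6) and above them under letters c and d (781.0 and 729.2 against 551.4 and 579.9), while for GCLM the side population points lie below the non-side points with 203925_at and above them with 236140_at under letters a and b.

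Across the 10 arrays, GCLC and TXNRD1 varied together most closely of the 8 genes (Pearson r = 0.817 on log2 values), followed by GCLC with SRXN1 (0.683) and HMOX1 with GCLM (0.645). GCLM and AKR1B10 ran against each other (-0.662), as did NQO1 and TXNRD1 (-0.578). HMOX1 and NQO1 had a correlation of 0.108. These describe 10 arrays that share groups, letters and scaling, and carry no test.

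The regulators of the pathway were read next, from a list of 9 genes of which 8 were tested. NFE2L2, the gene of NRF2 itself (201146_at), read 3549.7, 3426.3, 6433.0 and 8195.5 in side population replicates a to d, 4602.2, 2069.2, 5956.0 and 6667.1 in non-side population replicates a to d, and 8117.4 and 8711.3 in unsorted a and b. Replicates a and b were the lowest in both sorted groups, and side population replicate d was the 1 sorted array within the unsorted range. Its difference was 0.19 ± 0.36 between the sorted populations, -0.74 ± 0.44 for side population minus unsorted (adjusted p = 0.413) and -0.93 ± 0.44 for non-side population minus unsorted (adjusted p = 0.259).

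KEAP1, the adaptor that hands NRF2 to a ubiquitin ligase, stood at 0.37 ± 0.22 between the sorted populations, -0.23 ± 0.27 for side population minus unsorted (adjusted p = 0.734) and -0.60 ± 0.27 for non-side population minus unsorted (adjusted p = 0.242). BACH1, the repressor of HMOX1, stood at 0.15 ± 0.25 between the sorted populations, 0.17 ± 0.31 for side population minus unsorted and 0.015 ± 0.31 for non-side population minus unsorted. None of these passed.

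MAFF, a small MAF protein that lacks an activation domain and pairs with NRF2 or BACH1, was the regulator that rose. It read 12038.6, 11236.0, 12433.9 and 8232.7 in side population replicates a to d, 10608.7, 8455.3, 9564.2 and 10902.9 in non-side population replicates a to d, and 1965.5 and 3141.5 in unsorted a and b. Every sorted array lay above both unsorted arrays, at 2.12 ± 0.26 for the side population (adjusted p = 0.00121) and 1.98 ± 0.26 for the non-side population (adjusted p = 0.00128). MAFG, another small MAF gene, stood at 0.41 ± 0.29 for side population minus unsorted (adjusted p = 0.498) and 0.68 ± 0.29 for non-side population minus unsorted (adjusted p = 0.209).

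Among 8 tested genes of thioredoxins and peroxiredoxins, TXNIP, the arrestin-like protein that binds and inhibits thioredoxin, rose in both sorted populations. It read 10847.0, 8498.8, 10270.2 and 9846.3 in side population replicates a to d, 7629.0, 4502.0, 11945.2 and 10070.0 in non-side population replicates a to d, and 991.8 and 1430.7 in unsorted a and b. All 8 sorted arrays lay above both unsorted arrays. The difference was 3.04 ± 0.33 for side population minus unsorted (adjusted p = 0.000963) and 2.74 ± 0.33 for non-side population minus unsorted (adjusted p = 0.00107). The other 7 genes, each by its brightest probe set, were not called. The list had medians of 0.28 for side population minus unsorted and 0.31 for non-side population minus unsorted. Some dimmer probe sets differed from these. TXN 216609_at averaged 3465 in side and 2994 in non-side population arrays, against 460.8 in unsorted arrays. PRDX2 215067_x_at averaged 362.5 and 410.6 against 151.9, and PRDX2 211658_at went the other way, at 1317 and 1657 against 2814. PRDX3, the mitochondrial peroxiredoxin, stood at 0.34 ± 0.25 for side population minus unsorted (adjusted p = 0.525) and 0.66 ± 0.25 for non-side population minus unsorted (adjusted p = 0.163).

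In the list of glutathione and cystine genes 0 of 8 tested genes were called in any comparison. SLC7A11, the cystine and glutamate exchanger that supplies cysteine for glutathione, read 4696.1, 494.6, 2560.7 and 1787.8 in side population replicates a to d, 3817.6, 289.0, 2907.7 and 2480.4 in non-side population replicates a to d, and 341.8 and 426.2 in unsorted a and b. Replicates a, c and d of both sorted groups lay far above the unsorted arrays, and replicate b of both lay near them. With that spread the differences of 2.23 ± 0.89 for the side population and 2.12 ± 0.89 for the non-side population did not pass (adjusted p = 0.202 for each). GSR, glutathione reductase (205770_at), stood at -0.77 ± 0.34 for side population minus unsorted (adjusted p = 0.262), while its other probe set 225609_at averaged 1690 in side population arrays against 1348 in unsorted arrays.

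Of 5 tested genes that supply NADPH, 4 had negative values in each comparison with unsorted cells and 0 were called, with medians of -0.39 for the side population and -0.47 for the non-side population. Over all 9888 genes tested, 5283 had positive values for side population minus unsorted and 4861 for non-side population minus unsorted. PGD, an enzyme of the pentose phosphate pathway, had the smallest p for the side population, at -0.90 ± 0.31 (adjusted p = 0.144).

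Of 13 tested genes of heme and iron handling, with 1 probe set for each, 0 were called in any comparison. Over all 9888 genes tested, 5664 had positive values for side minus non-side population. Of the 13 genes, 10 had positive values there, with a median of 0.15. Among them were SLC11A2, an importer of ferrous iron (0.58 ± 0.21), ACO1, the iron-sensing cytosolic aconitase (0.51 ± 0.23), and NCOA4, the receptor that brings ferritin to autophagosomes (0.42 ± 0.19), with an adjusted p of 0.997 for each. Of the other SLC11A2 probe sets, 203123_s_at, 210047_at and 237106_at had the higher mean in side population arrays too, and 203125_x_at the lower one (353.9 in side population arrays and 424.7 in non-side population arrays). HMOX2, the constitutive heme oxygenase, stood at -0.49 ± 0.28 for side population minus unsorted (adjusted p = 0.404) and -0.18 ± 0.28 for non-side population minus unsorted (adjusted p = 0.769). TFRC, represented by 208691_at, stood at -0.10 ± 0.26 and -0.28 ± 0.26. Its probe set 237215_s_at read 81.5 to 412.0 in side and 94.5 to 482.2 in non-side population arrays, against 1293.7 and 1443.4 in unsorted arrays. Its 240686_x_at went the other way, averaging 117.0 and 67.6 against 20.75.

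SLC40A1, the iron exporter ferroportin, read 984.3, 1064.6, 3082.6 and 2650.1 in side population replicates a to d, 615.5, 711.1, 2455.8 and 2116.7 in non-side population replicates a to d, and 3171.2 and 3266.9 in unsorted a and b. All sorted arrays lay below both unsorted arrays, with replicates a and b the lowest of each group. The differences were -0.91 ± 0.57 for side population minus unsorted (adjusted p = 0.442) and -1.38 ± 0.57 for non-side population minus unsorted (adjusted p = 0.199).

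In the list of detoxification and efflux genes, 13 of 19 were tested. CBR3, a carbonyl reductase, rose in non-side population cells relative to unsorted cells. It read 260.3, 245.3, 307.6 and 335.2 in side population replicates a to d, 427.9, 356.8, 285.3 and 345.4 in non-side population replicates a to d, and 119.5 and 166.9 in unsorted a and b. Every sorted array lay above both unsorted arrays, at 1.27 ± 0.29 for the non-side population (adjusted p = 0.0265) and 0.98 ± 0.29 for the side population (adjusted p = 0.0869). UGT1A6, a glucuronosyltransferase, had the smallest p of the list for side minus non-side population, at -1.41 ± 0.61 (adjusted p = 0.997).

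Over all 6 lists, 55 of 66 genes were tested. Side minus non-side population gave 30 positive and 25 negative values and 0 calls, with a median of 0.053. Side population minus unsorted gave 28 positive and 27 negative values, with MAFF and TXNIP called higher and 0 genes called lower. Non-side population minus unsorted gave 27 positive and 28 negative values, with MAFF, TXNIP and CBR3 called higher and 0 called lower. All these calls were upward, whereas the HMOX1 call in the side population was downward. Over all 9888 genes tested, 2.35% were called for side population minus unsorted and 3.52% for non-side population minus unsorted. More of those calls were higher (1.81% and 2.37%) than lower (0.536% and 1.15%).

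**Figure D4:**
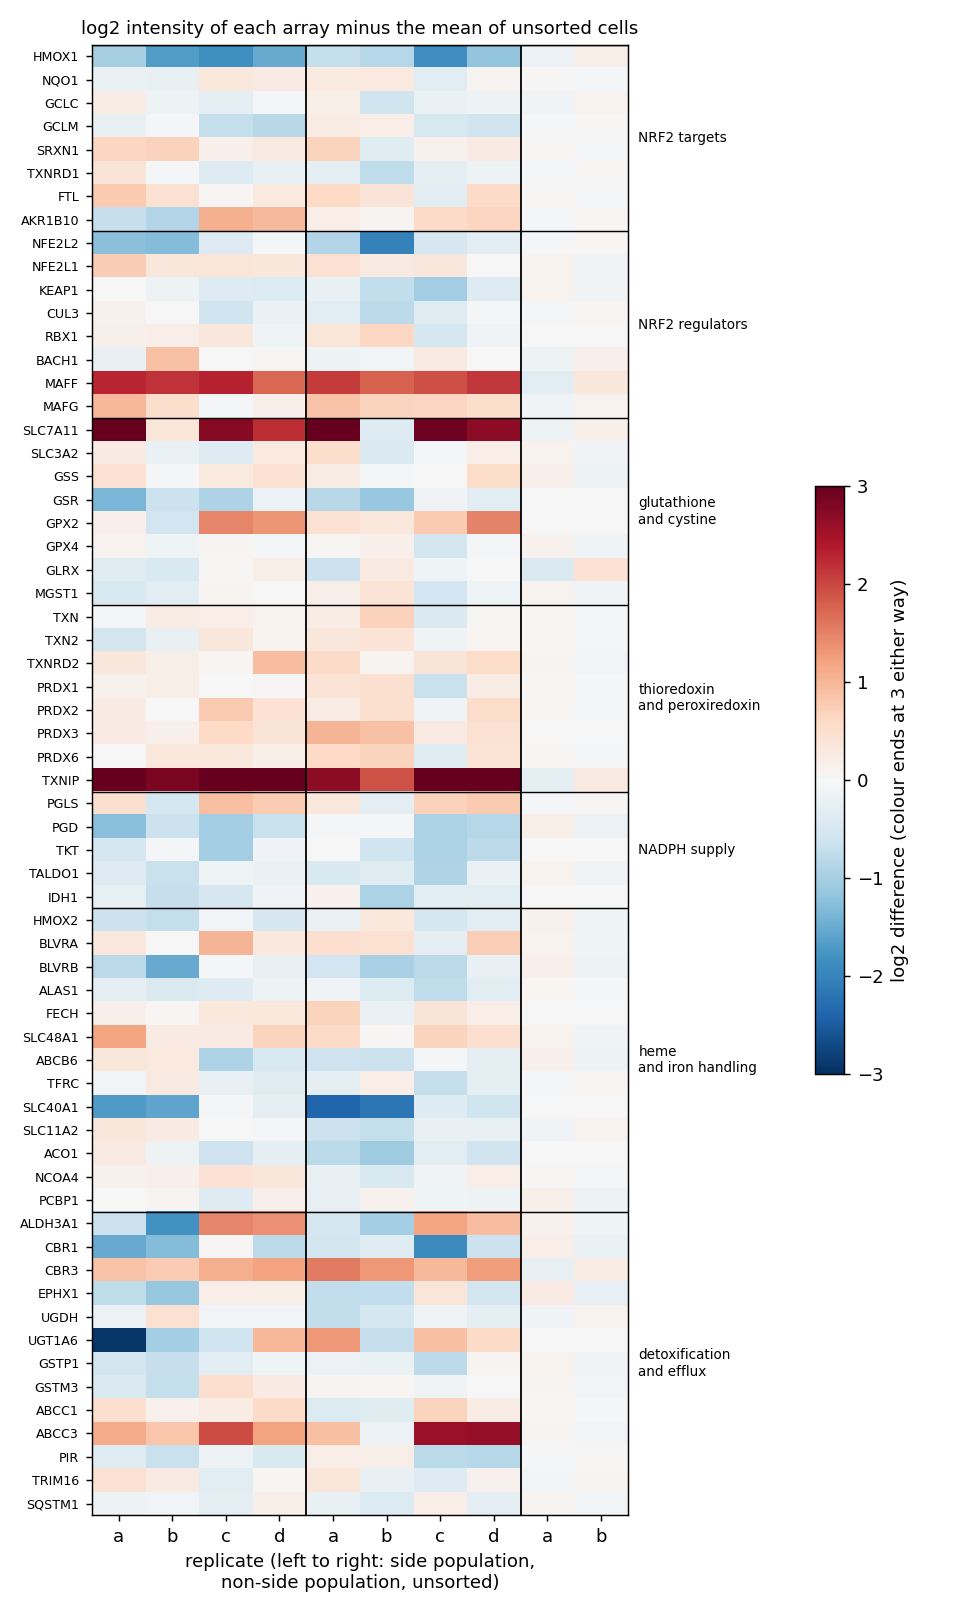
Log2 intensity of each array minus the mean log2 intensity of the 2 unsorted arrays for the 8 measured NRF2 targets and the 55 tested genes of the 6 lists, red above and blue below unsorted cells. MAFF and TXNIP are red on all 8 sorted arrays and HMOX1 is blue on all 8, while SLC7A11 is dark red on 6 sorted arrays and pale on replicate b of both populations.

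The 5 tested genes outside the set whose log2 values ran most like HMOX1 over the 10 arrays were LYPD6 (Pearson r = 0.963), GNB1 (0.95), NFATC3 (0.942), PIAS1 (0.940) and ACTR5 (0.934). The unsorted arrays were the 2 highest for each of them. PIAS1, which encodes a SUMO ligase, read 1082.9, 761.4, 626.1 and 775.4 in side population replicates a to d, 1120.4, 826.7, 675.8 and 711.6 in non-side population replicates a to d, and 1690.3 and 1847.5 in unsorted a and b. It was called lower in the side population (-1.15, adjusted p = 0.0490) and in the non-side population (-1.11, adjusted p = 0.0460), and the other 4 were not called. Of all genes, 0.536% and 1.15% were called lower in these comparisons. The 5 genes were picked by their likeness to HMOX1 on the same arrays, so high unsorted values came with the choice.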

How the data were processed

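The authors deposited 1 linear intensity per probe set and array, made with GCOS 1.4 per the submitters' processing notes. Its settings are not given in the sources used here. All arrays shared a trimmed mean (a share of 0.02 removed from either tail) of 500.065 to 500.095, so they had been scaled before deposit and were not rescaled. Detection calls were not used.

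Values were taken as log2(intensity + 6.1), where 6.1 is the 10th percentile of all intensities. Of the probe sets, 41097 had 1 gene symbol, 1801 several and 11777 none in the platform annotation. Each of 19775 genes was represented by its brightest single-symbol probe set, and those at or above the median (an intensity of 149) were tested. Version 3.58.1 of limma, run in R 4.3.3, fitted all 10 arrays in 3 groups (lmFit and eBayes with a trend), and its steps were tested on simulated data. No 2 arrays held identical values. Precision is limited by the few arrays, unsorted cells having 2.

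The genes and lists were chosen with earlier results of these data known. Named were all genes of the set, up to 3 genes of each list and comparison by smallest p, NFE2L2, KEAP1 and BACH1, and the 5 genes most correlated with HMOX1. The alternatives were other added constants, filters, quantile normalization, other uses of probe sets, no trend, only the compared groups, only AGS-labelled arrays, the replicate letter as a block, the letters a and b or c and d as groups, and leaving out each array. Same-letter arrays of the sorted groups were checked for shared deviations, which correlated at -0.117 to 0.498, so the letters were not taken as pairs. The titles give both sorted groups the same replicate group names, SPa to SPd. They do not state whether same-letter samples came from a shared sort, and this check cannot settle it.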

Additional observations from a re-analysis of the deposited data

Results flagged for a closer look

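In the GCLM probe set 234986_at, side population replicate b read 943.6 against 485.4 to 503.1 in the other 3 side population arrays. On the log2 scale, on which these gaps were taken, it was 0.946 of the group's range. In the FTL probe set 213187_x_at, non-side population replicate c read 26406.5 against 40876.4 to 44713.4 in the other 3, a gap of 0.83 of the range. Dixon's critical value at the 95% level was exceeded in these 2 of 32 groups examined, and chance flags about 1 in 20.

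Side and non-side population arrays were separated one way under letters a and b and the opposite way under c and d in 5 of the 16 probe sets. The share of all probe sets on the array that did so was not counted, so this number cannot be read as particular to these genes. The NQO1 probe sets among them, 201467_s_at and 210519_s_at, followed each other (r = 0.923). The log2 difference, side minus non-side population, was -0.92 under letters a and b and 0.41 under c and d for AKR1B10, -1.336 apart. For NQO1 it was -0.49 and 0.40 with 210519_s_at, -0.892 apart, and -0.68 and 0.40 with 201467_s_at, -1.074 apart. It was 0.31 and -0.47 for the GCLC probe set 202922_at, 0.777 apart, and 1.80 and -0.86 for the GCLM probe set 236140_at, 2.663 apart. The limma test of this gap did not pass for AKR1B10 (adjusted p = 0.0998) or for NQO1 with 210519_s_at (adjusted p = 0.115), and for the other 3 probe sets the gap was not tested.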

How the results depend on the processing

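The number of genes of the set called for side minus non-side population was 0, and 1 with letters a and b alone. For side population minus unsorted it was 1, and 0 after quantile normalization or with only AGS-labelled arrays, 2 for letters a and b (1359 of all genes called), 3 for letters c and d (840 called), and 0 to 1 without 1 array. For non-side population minus unsorted it was 0, and 1 for letters c and d (1179 called) or for letters a and b without side population replicate a (2280 called), an alternative chosen after seeing the data. HMOX1 for side population minus unsorted was negative under all 24 alternatives, -1.68 to -1.23, and passed in 17 of them, with an adjusted p from 0.00429 to 0.334. It was 0.0539 after quantile normalization and 0.0644 with only AGS-labelled arrays. For non-side population minus unsorted HMOX1 passed in 2 of 24. With the replicate block, HMOX1 was -1.23 for side population minus unsorted, 0 genes were called between the sorted populations, and the calls over all genes were 734 and 967 against unsorted cells, where 232 and 348 were called without it. Of the list genes it called NFE2L2 (-1.26 for the side population and -1.45 for the non-side population), SLC40A1 (-1.72 and -2.20), BLVRB (-0.97 and -0.96) and, for the side population, GSR (-1.08) lower than in unsorted cells, none of which passed without it. The block joined unsorted a and b to the sorted arrays of those letters, a link the labels do not give. Letters c and d hold no unsorted array, so the block's differences from unsorted cells lean on letters a and b. Relative to unsorted cells, NFE2L2 stood at -1.24 and -1.29 in side population replicates a and b, and at -0.39 and -0.037 in c and d. Of the 8 sorted arrays, 5 correlated best with their own letter. Over all genes, calls ranged from 9 to 389 for side population minus unsorted and from 17 to 654 for non-side population minus unsorted without 1 array, the lowest without unsorted replicate a. Filters, probe-set rules, labels, the block and letters moved them too, from 88 to 1359 and from 144 to 2280. Signs changed only for values that had not passed in the fit of all arrays. For side minus non-side population the mean of a gene's probe sets gave 0.071 for NQO1, -0.092 for GCLC, 0.025 for GCLM and -0.19 for TXNRD1. AGS-labelled arrays gave 0.20 for NQO1, -0.16 for FTL and 0.65 for AKR1B10, and letters c and d gave 0.40 for NQO1, -0.072 for TXNRD1 and 0.41 for AKR1B10. Without 1 array the values ran from -0.18 to 0.038 for NQO1, -0.0056 to 0.26 for GCLC, -0.14 to 0.19 for FTL and -0.57 to 0.077 for AKR1B10, and FTL was -0.043 for letters a and b without side population replicate a. For side population minus unsorted the mean of probe sets gave -0.016 for NQO1 and 0.51 for GCLC, and the replicate block gave -0.46 for AKR1B10. Letters a and b gave -0.20 for NQO1, 0.044 for GCLC, 0.17 for TXNRD1 and -0.79 for AKR1B10 (adjusted p = 0.0442), and without side population replicate a -0.21 for NQO1 and -0.88 for AKR1B10. Without 1 array the values ran from -0.054 to 0.12 for NQO1, -0.17 to 0.042 for GCLC, -0.22 to 0.042 for TXNRD1 and -0.21 to 0.44 for AKR1B10. For non-side population minus unsorted the mean of probe sets gave -0.087 for NQO1 and 0.60 for GCLC, the replicate block gave 0.18 for GCLM and -0.20 for AKR1B10, letters a and b gave 0.21 for GCLM (also without side population replicate a), and letters c and d gave -0.12 for NQO1. The cause of these changes was not tested.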
